A study of Mus musculus with 2 samples.

Results

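The proteasome was described here by the transcripts of its subunits, its regulators and the chaperones that build it. Members were chosen by gene name, as the genes of the raw count table whose symbol begins with Psm, a letter from a to g and a digit, without the interferon-inducible Psmb8, Psmb9, Psmb10, Psme1 and Psme2. This gave 44 genes of the 19294 listed. The mRNA was measured in 1 control culture and 1 culture treated with DSS, both at day 4, so each condition is 1 library. DSS (dextran sulfate sodium) is a sulfated polysaccharide that injures the epithelium, and the dose used for sequencing is not given in the sources used here. Both cultures were mouse intestinal organoids (mIOs), grown from jejunal crypts in Matrigel with EGF, Noggin and R-spondin, and both carry the Lgr5-EGFP-IRES-creERT2 allele, a reporter of Lgr5+ stem cells. The control culture carries the allele as well and differs in the label only by the absence of DSS. The label names the cell type as intestinal stem cells, and the stem cell marker Lgr5 had 18849 control and 1048 DSS counts. The age of the mice and the number of mice behind each culture are not stated.

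The proteasome degrades proteins that are tagged with ubiquitin. Its core particle is a barrel of alpha and beta rings with the peptide-cutting sites inside, and the regulatory particle on its ends recognizes, unfolds and feeds in the substrate. The subunits are made in fixed proportions and are put together by dedicated chaperones that are not part of the finished machine. In the intestine, as elsewhere, the complex is needed in resting and dividing cells alike, and interferons exchange the catalytic subunits for the forms of the immunoproteasome.

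By role, 31 of the 44 members are subunits, 14 of the core particle and 17 of the regulatory particle. A further 4 are chaperones of the core, 3 are chaperones of the base and 3 are other caps or binding proteins. The remaining names match the pattern only. Psmc3ip is a recombination cofactor and no proteasome protein, Psme2b is a near copy of Psme2 with which it can share reads, and Psmb7-ps2 is a pseudogene. Psmb7-ps2 had 3 control and 4 DSS counts, so no ratio is given for it, and it was left out below. The other 43 members reached the minimum of 10 counts in the control or the DSS library, and each of them had at least 11 counts in both. The testis and thymus forms Psma8 and Psmb11 are not in the table, which lists only genes with at least 1 count in each library.

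Total depth was 65493032 counts for the control and 59746968 for DSS. Counts were scaled by TMM factors, which were 1.09 and 0.915, and the difference of a gene is the log2 ratio of scaled counts, DSS over control. Each ratio carries a 95% interval that covers counting error only. There are no replicates, so no test was made and differences between cultures are not part of any interval. Over the 17235 genes that reached the minimum, the median log2 ratio was -0.06, and with total counts as the scale it was -0.31. Shares of 30.7% and 33.5% of these genes lay at or beyond 0.5 and -0.5, and with total counts as the scale these shares were 24.4% and 42.7%. All 10 epithelial markers of a hand-written list were counted, and their ratios had a median of 0.03 and ran from -1.35 for Cdx2 (12798 and 3840 counts) to 3.99 for Krt20 (5041 and 61268 counts), with Epcam at 0.03. Of 9 immune markers, 4 were not in the table, among them the pan-leukocyte gene Ptprc. The 5 counted ones had a median of 1.05 and summed levels of 14.3 and 24.9 CPM (scaled counts relative to depth), from Lyz2 at -0.56 (137 and 71 counts) to Csf1r at 1.61 (9 and 21 counts), with Itgam at 1.14 (375 and 631 counts) and Cd68 at 0.73 (491 and 621 counts). Of 10 markers of a mesenchymal list, which also holds the endothelial gene Pecam1, 4 were not in the table. The 5 that reached the minimum were all above 0, beside 48.0% of all genes. Their median was 2.58, the value of Pecam1, with summed levels of 6.79 and 36.9 CPM. These came mostly from Vim at 2.70 (374 and 1857 counts). Pecam1 had 12 and 55 counts, Pdgfrb 67 and 64, Acta2 4 and 20, and Col1a1 29 and 24. The part of these cell types in the ratios of the proteasome genes was not tested.

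Transcripts of most proteasome subunits were slightly lower in the DSS library, and those of the core assembly chaperones were much lower. The 31 subunits had a median log2 ratio of -0.21, beside -0.06 for all genes and -0.10 for the 8960 genes that reached 1000 counts. Their range was from -0.74 to 0.64, and 26 of the 31 were below 0, beside 52.0% of all genes. Of the 31 subunits, 27 lay between -0.5 and 0.5, compared with 35.8% of all genes and 43.6% of the 8960 genes that reached 1000 counts. With total counts as the scale, 19 of the 31 lay in this band and 12 at -0.5 or less, beside 33.0% and 42.7% of all genes. The 4 core assembly chaperones, Psmg1 to Psmg4, had a median of -1.87 and a range from -2.55 to -1.10. Their median minus that of the core particle they assemble was -1.65, a distance that no scaling between the libraries can change. Over all 43 members, the median was -0.22, with 36 ratios below 0 and 7 above 0, beside 52.0% and 48.0% of all genes. There were 9 members at -0.5 or less, where 33.5% of all genes lay, and 2 at 0.5 or more, where 30.7% lay. At -1 or less were 5 members, the 4 Psmg genes and Psmc3ip, beside 20.2% of all genes. Psmg3 and Psmc3ip were at -2 or less, beside 6.54% of all genes. None of the members was at 1 or more, beside 19.3% of all genes.

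**Figure D1:**
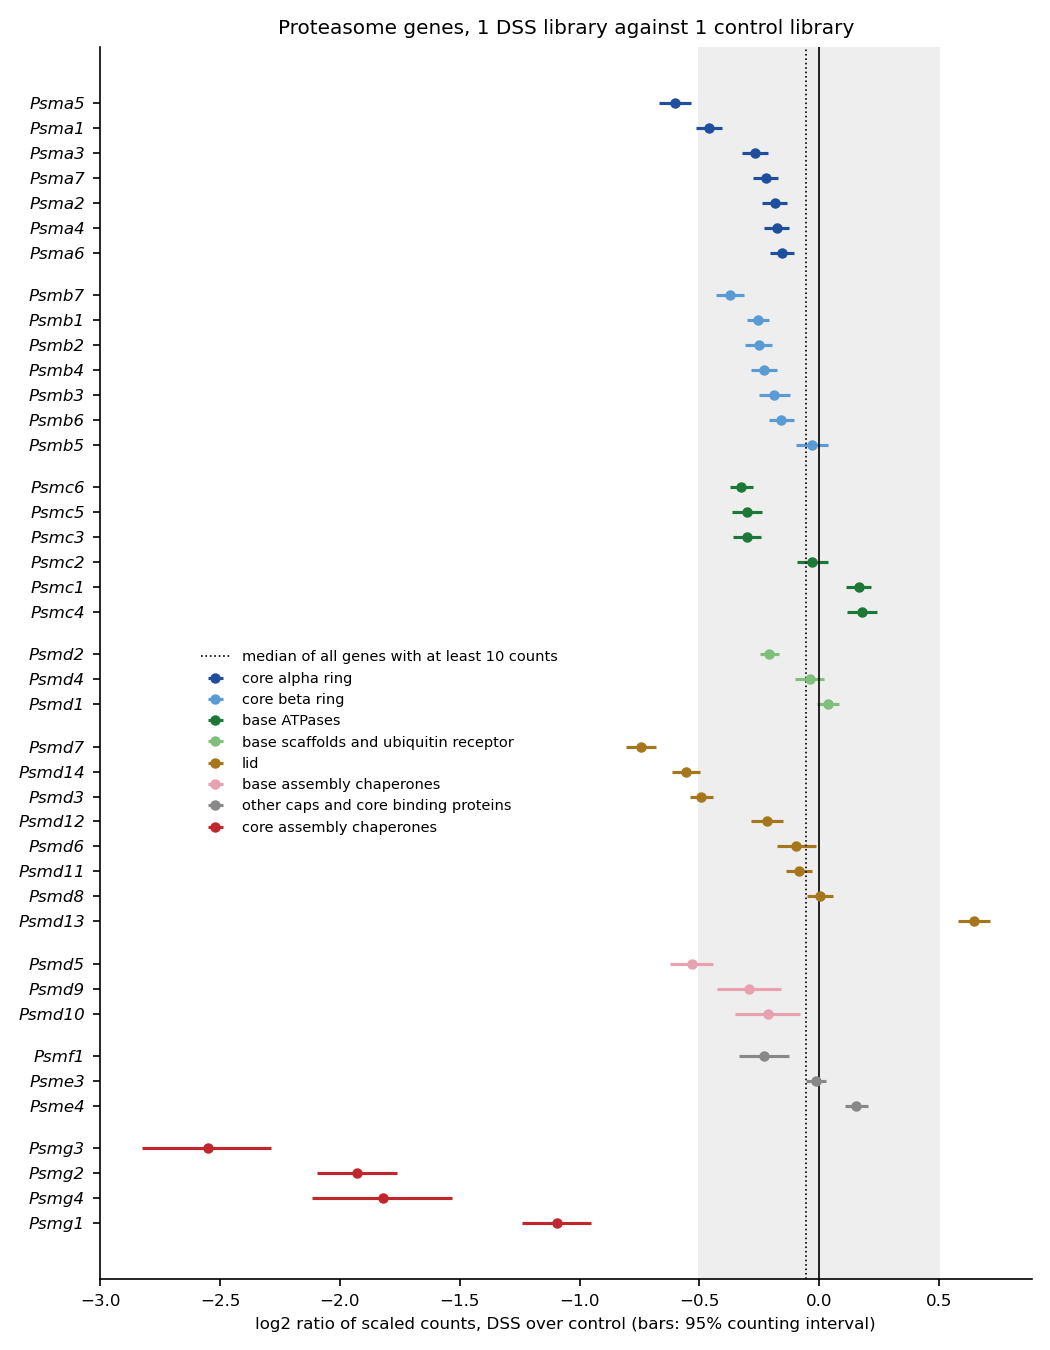
Log2 ratio of scaled counts, DSS over control, for 41 proteasome genes grouped by role, with 1 point per gene and bars for the 95% counting interval. The shaded band runs from -0.5 to 0.5 and holds most subunits, while the 4 core assembly chaperones lie between -2.55 and -1.10.

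The 250 bases upstream of the annotated start are shown for the genes on which this contrast turns, that is for 3 of the core assembly chaperones, for the subunit with the highest ratio (Psmd13) and for the catalytic subunits Psmb5 and Psmb6. They were taken from the RefSeq promoter table of the build GRCm38.p6, which held 36 of the 44 members, and Psmg2 was not among them. Each reads 5′ to 3′ on the strand of its gene. Capitals mark the core of the antioxidant response element, TGACNNNGC on either strand, the site family bound by the transcription factors NRF1 (gene Nfe2l1) and NRF2.
Psmb5, GRCm38.p6, chr14:54617996-54618245, minus strand: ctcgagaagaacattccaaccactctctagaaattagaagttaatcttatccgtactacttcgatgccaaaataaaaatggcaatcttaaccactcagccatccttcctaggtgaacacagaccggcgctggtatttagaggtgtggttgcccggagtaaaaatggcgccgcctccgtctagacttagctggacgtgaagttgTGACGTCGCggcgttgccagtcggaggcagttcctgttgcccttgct
Psmb6, GRCm38.p6, chr11:70525107-70525356, plus strand: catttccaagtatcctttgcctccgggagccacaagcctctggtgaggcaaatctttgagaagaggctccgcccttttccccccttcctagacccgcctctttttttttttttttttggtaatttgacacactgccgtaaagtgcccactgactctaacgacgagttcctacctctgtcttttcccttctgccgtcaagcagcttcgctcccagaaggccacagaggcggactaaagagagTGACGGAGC
Psmd13, GRCm38.p6, chr7:140882144-140882393, plus strand: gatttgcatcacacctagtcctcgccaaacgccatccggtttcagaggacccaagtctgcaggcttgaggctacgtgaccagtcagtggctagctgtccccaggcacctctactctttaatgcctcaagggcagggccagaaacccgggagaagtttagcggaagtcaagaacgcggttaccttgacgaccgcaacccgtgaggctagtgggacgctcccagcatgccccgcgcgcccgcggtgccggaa
Psmg1, GRCm38.p6, chr16:95990961-95991210, minus strand: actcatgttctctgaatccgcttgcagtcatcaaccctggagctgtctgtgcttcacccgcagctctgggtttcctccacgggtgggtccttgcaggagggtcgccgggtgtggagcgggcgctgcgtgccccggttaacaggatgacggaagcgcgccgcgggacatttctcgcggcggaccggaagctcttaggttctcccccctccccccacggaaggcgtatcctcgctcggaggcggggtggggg
Psmg3, GRCm38.p6, chr5:139826895-139827144, minus strand: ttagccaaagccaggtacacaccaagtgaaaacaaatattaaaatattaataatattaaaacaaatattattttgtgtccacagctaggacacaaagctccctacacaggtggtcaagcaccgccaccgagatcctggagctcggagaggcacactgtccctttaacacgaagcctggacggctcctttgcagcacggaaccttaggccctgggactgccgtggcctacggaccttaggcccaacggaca
Psmg4, GRCm38.p6, chr13:34162714-34162963, plus strand: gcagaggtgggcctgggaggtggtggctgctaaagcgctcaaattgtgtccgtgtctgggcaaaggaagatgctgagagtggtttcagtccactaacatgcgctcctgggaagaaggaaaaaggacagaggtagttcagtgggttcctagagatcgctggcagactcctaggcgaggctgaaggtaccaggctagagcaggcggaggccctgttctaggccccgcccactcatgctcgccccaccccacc
In these windows, the element core was found once in Psmb5, from 47 to 39 bases before the start, and once in Psmb6, in the last 9 bases before the start. Neither Psmd13 nor Psmg1, Psmg3 or Psmg4 holds these letters in the window shown. Of the 36 member genes with a promoter, 5 (Psmb5, Psmb6, Psmc6, Psmd9 and Psmd12) had the core, or 13.9%, compared with 10.2% of all 32851 promoters and 11.8% of the 15665 promoters of genes with at least 10 counts. The ETS core CCGGAAGT was found in 5 member genes (Psmc1, Psmc2, Psmd6, Psmd12 and Psme4). That is 13.9%, compared with 5.13% of the promoters of counted genes. The CCAAT box (CCAAT) was found in 13 member genes and the GC box (GGGCGG) in 19, or 36.1% and 52.8%, beside 35.1% and 52.7% of the promoters of counted genes. The E-box CACGTG was in 3 members (8.33%), the heat shock pair GAANNTTC in 2 (5.56%) and the palindrome of nuclear respiratory factor 1 in 1 (Psma2, 2.78%), beside 7.86%, 5.23% and 1.39% of the promoters of counted genes. Members were counted as genes in these comparisons, whereas the other shares count promoters. All motifs were searched on both strands, and a match is a description of the letters only.

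The alpha rings close the ends of the barrel and gate the entry to it. All 7 alpha subunits were lower in the DSS library, beside 52.0% of all genes, with a median log2 ratio of -0.22 and a range from -0.60 to -0.16. Psma5 had 5449 control and 2740 DSS counts, a log2 ratio of -0.60 (interval -0.67 to -0.54), the lowest of the core particle. Psma1 followed, with 7766 and 4314 counts and a ratio of -0.46. The other 5 were close together, from Psma3 at -0.27 over Psma7 at -0.22, Psma2 at -0.19 and Psma4 at -0.18 to Psma6 at -0.16. Psma6 had 7928 and 5437 counts, with an interval from -0.21 to -0.11. Thus the intervals of Psma5 and Psma6, the lowest and the highest of the 7 alpha subunits, did not overlap. However, they were picked as extremes from these same ratios, and intervals are narrow at such counts. Both genes code for the same ring.

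The beta rings carry the active sites. All 7 beta subunits had ratios below 0, Psmb5 not under every scaling, beside 52.0% of all genes. Their median was -0.23, with a range from -0.37 to -0.03. None reached -0.5, except with total counts as the scale, where Psmb1, Psmb2 and Psmb7 were at -0.51, -0.51 and -0.63. Psmb5, the chymotrypsin-like subunit, had 4209 control and 3146 DSS counts, and its log2 ratio of -0.03 had an interval from -0.10 to 0.04 that includes 0. Psmb6, the caspase-like subunit, had 7426 and 5082 counts and a ratio of -0.16 (interval -0.21 to -0.11). Psmb7, the trypsin-like subunit, had 6775 and 3997 counts and a ratio of -0.37 (interval -0.43 to -0.32). The 3 catalytic subunits therefore spanned the whole range of the beta ring, with Psmb5 at its upper and Psmb7 at its lower end. The 4 subunits without an active site, Psmb1, Psmb2, Psmb3 and Psmb4, lay between -0.26 and -0.19. Antisense exons of Nek6 cover 11.8% of the annotated exon bases of Psmb7, and whether counting used the strand is not stated. Nek6 itself was at -0.58. Exons of Mir686 on the same strand overlap 12.1% of the exon bases of Psmb5. The part of shared reads in these values was not tested.

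Together, the 14 core subunits took 97955 control and 62889 DSS counts. In CPM this was 1369 and 1150, a summed log2 ratio of -0.25. The interquartile range of the 14 ratios was 0.08 on the log2 scale. It was 1.51 for all genes that reached the minimum and 1.20 for the 8960 genes that reached 1000 counts. Of the 14 ratios, 13 were below 0 under each of the 5 scalings, and Psmb5 changed sign between -0.29 and 0.06. With TMM factors, 52.0% of all genes were below 0.

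The base of the regulatory particle holds a ring of 6 ATPases that unfold the substrate and open the core. These split into a lower and a higher set. Psmc3, Psmc5 and Psmc6 were at -0.30, -0.30 and -0.33, with intervals below 0, and Psmc6 had 8951 control and 5457 DSS counts. Psmc2 was at -0.03, with 4454 and 3334 counts and an interval from -0.09 to 0.04. Psmc1 had 6523 and 5585 counts, a ratio of 0.16, and Psmc4 had 4400 and 3806 counts, a ratio of 0.18 (interval 0.12 to 0.24). The intervals of Psmc1 and Psmc4 did not overlap those of Psmc3, Psmc5 and Psmc6. The order between these sets is thus larger than the counting error, although the sets were formed from these same ratios. Intervals are narrow at such counts, and of all 17235 genes 3205 had one that includes 0. The sign of Psmc1, Psmc2 and Psmc4 depended on the scaling, since with total counts Psmc1 was at -0.09 and Psmc4 at -0.08.

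Of the remaining base subunits, Psmd1 and Psmd2 are scaffolds that dock ubiquitin shuttles and other partners. Psmd2, the most counted member, had 12854 control and 8500 DSS counts, a ratio of -0.21. Psmd1 had 9146 and 7162 counts and a ratio of 0.04 (interval -0.01 to 0.08). Psmd4, a ubiquitin receptor, was at -0.04, with 5343 and 3970 counts. The median of the 9 base subunits was -0.04. None of them was past 0.5 in either direction, except with total counts as the scale, where Psmc3, Psmc5 and Psmc6 were at -0.56, -0.56 and -0.58.

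The lid removes ubiquitin from the substrate, and its 8 subunits had the widest range of the subunit groups, from -0.74 to 0.64. Psmd14 is the deubiquitinating enzyme and Psmd7 its partner of the same MPN fold, and these were the lowest of the regulatory particle. Psmd7 had 6415 control and 2925 DSS counts, a log2 ratio of -0.74 (interval -0.81 to -0.68). Psmd14 had 6706 and 3484 counts, a ratio of -0.56 (interval -0.62 to -0.50). Both stayed below 0 under each scaling.

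The other 6 lid subunits, of the PCI fold, form the scaffold of the lid. Psmd3 was the lowest, with 10392 and 5643 counts and a ratio of -0.49. Psmd12 at -0.22, Psmd6 at -0.10 and Psmd11 at -0.09 were nearer to 0, and Psmd8, with 6250 and 4789 counts, had an interval from -0.05 to 0.06. Psmd13 had 3407 control and 4068 DSS counts, and it was the only subunit with more raw counts under DSS. Its log2 ratio was 0.64, a 1.56-fold higher level, with an interval from 0.58 to 0.71, and it ranged from 0.39 with total counts to 0.73 with upper quartile factors. Exons of Sirt3 on the opposite strand cover 10.1% of its annotated exon bases. Sirt3 itself was at 0.19, with 1312 and 1146 counts, and the part of shared reads in the value of Psmd13 was not tested.

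The 17 subunits of the regulatory particle had a median of -0.10, compared with -0.23 for the core particle, a difference of -0.13. The ratios of the regulatory particle overlapped the whole range of the core particle, and with 1 library per condition the difference between them has no test. Over the 5 scalings, 9 of the 17 subunits kept a ratio below 0, 7 changed sign, and Psmd13 was the only one that stayed above 0. Of the 17, 12 were below 0 with TMM factors, beside 52.0% of all genes. The summed counts of the regulatory particle were 111118 and 76165, a log2 ratio of -0.16.

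Levels between genes were compared per length of the transcript, as CPM per kilobase. For the core particle, they ran from 35.1 (Psma2) to 130.0 (Psmb6) in the control and from 30.8 to 116 in the DSS library, with the same genes at both ends. For the regulatory particle, the range was from 23.9 (Psmd13) to 67.6 (Psmd3) in the control and from 28.7 (Psmd6) to 64.2 (Psmc1) in the DSS library. Psmd13 had thus the lowest level per length of all 31 subunits in the control but not under DSS. Across the 14 core subunits, the levels of the control and DSS libraries had a Spearman rho of 0.95, and across the 17 subunits of the regulatory particle it was 0.66. These values describe genes of the same pair of libraries, whose lengths they share.

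**Figure D2:**
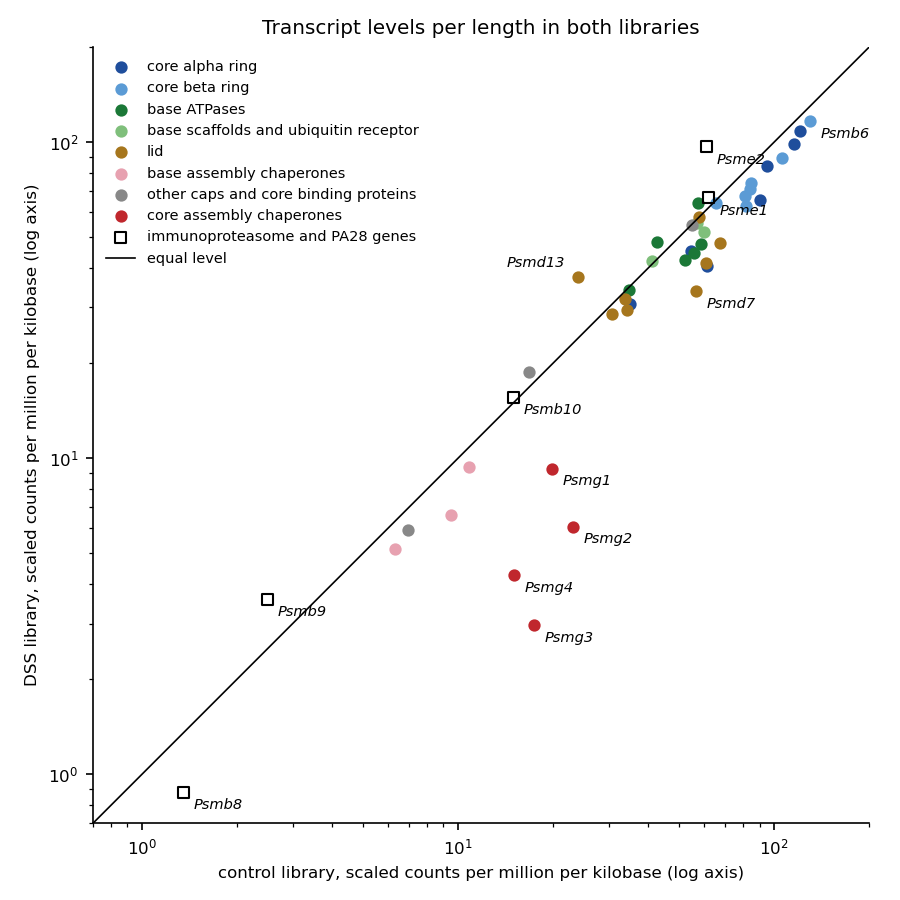
Level per length in the DSS library against that in the control library for the same proteasome genes and, as squares, the immunoproteasome and PA28 genes, in CPM per kilobase on log axes. Subunits lie near the line of equal level, and the 4 Psmg genes lie below it, at 15.1 to 23.1 in the control and 2.97 to 9.27 in the DSS library.

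The core assembly chaperones act as pairs, Psmg1 with Psmg2 and Psmg3 with Psmg4, and guide the alpha subunits into a ring before the beta subunits are added. Psmg1 had 1480 control and 529 DSS counts. Psmg2 had 1754 and 352 counts. Psmg3 had 1006 and 131 counts, and Psmg4 had 555 and 120. Every chaperone had fewer counts under DSS, and the lowest of these values is still 120 counts, so the ratios do not rest on a few reads.

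The log2 ratio of Psmg3 was -2.55, with an interval from -2.83 to -2.29, a level that was 5.87-fold lower under DSS. Psmg2 was at -1.93, with an interval from -2.10 to -1.76. Psmg4 was at -1.82, with an interval from -2.12 to -1.53, and Psmg1 was at -1.10, with an interval from -1.24 to -0.95. The interval of Psmg1 did not overlap that of its partner Psmg2, so the members of this pair differed by more than the counting error. All 4 lay at -1 or less under each of the 5 scalings, with a range from -1.35 to -1.01 for Psmg1. An annotated gene on the same strand, Gm26938, overlaps 9.7% of the exon bases of Psmg3.

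Pomp completes the core by helping the beta rings close, and it is no member by name. It was at 0.41, with 4278 control and 4343 DSS counts. The 5 assembly factors of the core therefore ran from -2.55 to 0.41, and the lower values belonged to those that act on the alpha ring. The chaperones of the base, Psmd5, Psmd9 and Psmd10, hold the ATPases until the ring is complete, and they were at -0.53, -0.29 and -0.22. Psmd5 had 3001 and 1585 counts, with an interval from -0.62 to -0.44, and Psmd10 had 1096 and 721 counts. For Psmd9, an antisense gene overlaps 25.5% of the annotated exon bases. Their median minus that of the regulatory particle was -0.20, whereas the same difference between the Psmg genes and the core particle was -1.65.

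Genes of cycling cells were also lower in the DSS library. The 8 cycling markers of the hand-written list were below 0, beside 52.0% of all genes. Their median was -4.01, with a range from -4.70 (Mcm5, 4984 and 146 counts) to -0.71 (Pcna, 20088 and 9370 counts), and summed levels of 1401 and 246 CPM. Of the 6 stem cell markers, all were below 0, beside the same 52.0%. Their median was -4.02, with a range from -9.59 (Olfm4, 13109 and 13 counts) to -1.25 (Smoc2, 17661 and 5670 counts). The part of these cells in the values of the Psmg genes was not tested. In such bulk libraries, fewer cells of a type and less RNA per cell cannot be told apart. Psmc3ip, which matches the name pattern but acts in recombination, had 207 control and 11 DSS counts, a ratio of -3.85 (interval -4.87 to -2.98), the lowest of all members. Antisense exons of Mlx, which was at 0.78, cover 21.2% of its annotated exon bases.

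Other caps can replace or join the regulatory particle. Psme3, the nuclear cap PA28γ, had 10519 control and 7956 DSS counts, a ratio of -0.01 (interval -0.06 to 0.03). Psme4, the large cap PA200, had 7821 and 6647 counts and a ratio of 0.15 (interval 0.11 to 0.20), which was -0.10 with total counts. Psmf1, the core binding protein PI31, was at -0.23, with 1898 and 1237 counts and an interval from -0.33 to -0.13. None of the 3 was past 0.5 in either direction.

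The 5 interferon-inducible genes that the name rule leaves out differed in direction, and with total counts as the scale Psmb10 and Psme1 were below 0, at -0.19 and -0.16. Psme2, a subunit of the cap PA28, was at 0.66, with 3846 control and 4638 DSS counts and an interval from 0.60 to 0.72. Its partner Psme1 was at 0.10, with 4950 and 4050 counts. Psmb9 was at 0.52, with 242 and 265 counts, Psmb10 at 0.06, with 1403 and 1119 counts, and Psmb8 at -0.63, with 158 and 78 counts and an interval from -1.04 to -0.23. For Psmb8, an antisense gene overlaps 14.7% of the annotated exon bases. Psme2b, the near copy of Psme2, had 29 and 40 counts and a ratio of 0.85, and its value is uncertain because reads of both genes may be shared.

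Within a library, the ratio of an inducible to a constitutive subunit does not depend on the scaling between libraries. Per length, Psmb8 was at 2.07% of Psmb5 in the control and 1.37% under DSS. Psmb9 was at 1.92% and 3.08% of Psmb6, and Psmb10 at 18.3% and 24.8% of Psmb7. In both libraries the constitutive form thus had the higher level in each of these pairs. Of the caps, Psme2 was at 111% of Psme3 in the control and 177% under DSS.

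The genes around the proteasome were taken from hand-written lists, whose counts are given beside those of the members. With TMM factors, 6 of 12 listed partner proteins were above 0 and 6 below 0, beside 48.0% and 52.0% of all genes. Their median was -0.01. With total counts as the scale, which lowers every ratio, fewer were above 0. The deubiquitinases Usp14 and Uchl5, which bind the base, were lowest, both at -0.73, with 7344 and 3385 counts for Usp14 and 2425 and 1116 for Uchl5. Adrm1, a ubiquitin receptor of the base, was at 0.25, with 4081 and 3716 counts. Sem1, the smallest lid subunit, was at -0.30, with 4410 and 2730 counts. With TMM factors, both subunits that lack the Psm name thus lay between -0.5 and 0.5 like most others. With total counts as the scale, Sem1 lay past -0.5, as did Psmc5, which had nearly the same ratio and was then at -0.56. Zfand2a, a stress-induced protein that binds the complex, was the highest at 1.55, with 1992 control and 4457 DSS counts. Paaf1 was not in the table.

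NRF1, the product of Nfe2l1, raises the transcription of proteasome genes when proteasome activity is short. Nfe2l1 itself was at 0.04, with 10790 control and 8456 DSS counts, and its interval from -0.00 to 0.08 includes 0. The related list held 9 genes, for NRF1, NRF2 and their regulators and partners. With TMM factors, 4 of the 9 were at 0.5 or more and none at -0.5 or less, beside 30.7% and 33.5% of all genes. Keap1, which holds back NRF2, was the lowest at -0.40, with 8185 and 4742 counts. Those at 0.5 or more were Ngly1 and Ddi2, whose products process NRF1, at 1.13 and 0.52, and the small Maf partners Mafk and Maff at 1.62 and 1.15. Mafk had 2262 control and 5321 DSS counts. On the scale of total counts, which lowers every ratio, Ddi2 lay below 0.5 and Keap1 below -0.5.

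The enzymes Uba1 and Uba6, which activate ubiquitin for transfer to proteins, were at -0.31 and -0.01. The 10 genes of the shuttles and of the p97 complex, which bring substrate to the proteasome, had a median of -0.24 and a range from -0.53 (Ubqln4, 6308 and 3334 counts) to 0.21 (Nploc4, 4392 and 3888 counts), beside a median of -0.21 for the subunits. Vcp, which codes for p97, was at -0.25, with 27319 and 17531 counts.

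The lid shares its PCI and MPN folds with the COP9 signalosome and the initiation factor eIF3. The 9 genes of the COP9 signalosome had a median of -0.36 and a range from -0.88 (Cops7a, 8268 and 3425 counts) to 0.18 (Cops5, 4520 and 3919 counts). The 8 genes of eIF3 in the list had a median of -0.91 and a range from -1.14 (Eif3m, 11592 and 4027 counts) to -0.70 (Eif3k, 12357 and 5816 counts). The eIF3 genes thus lay below 7 of the 8 lid subunits, with Psmd7 as the exception. The CCT chaperonin, a barrel that folds proteins, had a median of -1.10 over 8 genes, from Cct3 at -1.56 (13601 and 3512 counts) to Tcp1 at -1.01 (25194 and 9557 counts). With TMM factors all 8 were at -1 or less, beside 20.2% of all genes. With upper quartile factors or centered on the median of all genes, which raise every ratio, Tcp1 and Cct7 lay above -1. Cct8 also lay above -1 with upper quartile factors. By median, the CCT chaperonin was the nearest of these 3 complexes to the Psmg genes and the COP9 signalosome the nearest to the proteasome subunits.

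**Figure D3:**
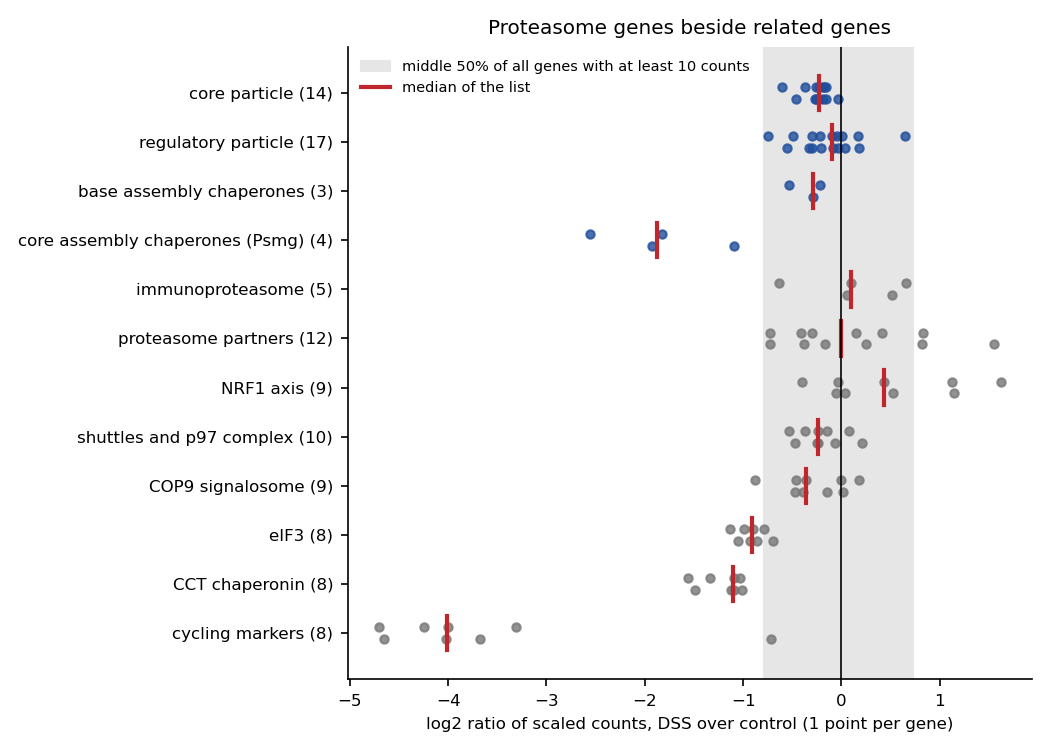
Log2 ratio of scaled counts, DSS over control, with 1 point per gene for groups of proteasome genes (blue) and related lists (gray), the number of genes in brackets and a red bar at the median. The median of the core particle is -0.23 and that of the Psmg genes -1.87, beside -1.10 for the CCT chaperonin and -0.91 for eIF3.

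**Figure D4:**
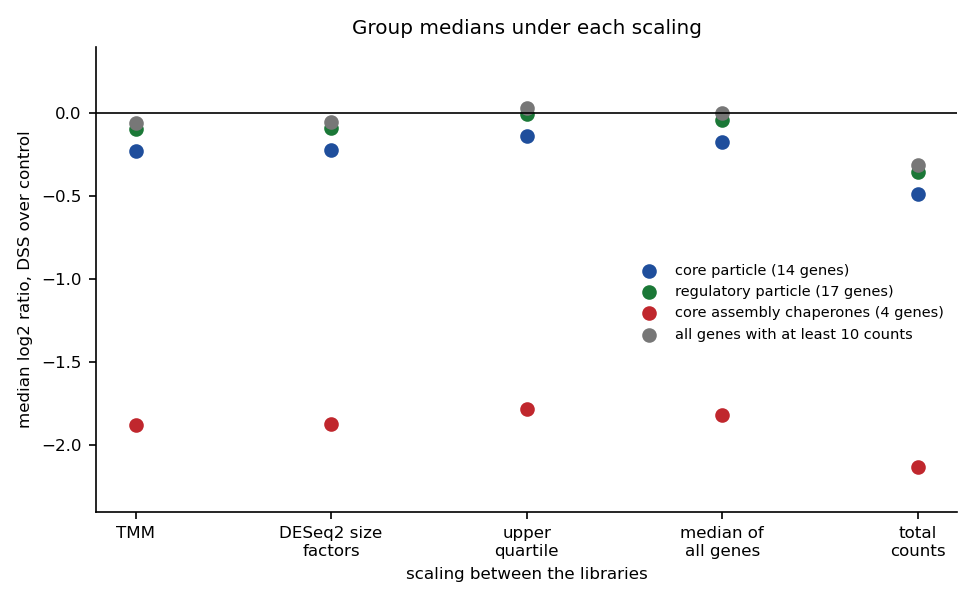
Median log2 ratio of the core particle, the regulatory particle, the Psmg genes and all genes with at least 10 counts under each of 5 scalings between the libraries. The median of the core particle lies between -0.48 (total counts) and -0.14 (upper quartile factors), all medians shift alike, and the difference of -1.65 between the Psmg genes and the core particle stays the same.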

How the data were processed

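The mRNA was sequenced from 1 control and 1 DSS-treated culture with a stranded poly(A) kit. The values the authors deposited are read counts, listed by NCBI gene identifier and not normalized. A file for each sample carries FPKM in its name, repeats these counts and was not used. The submitters' processing notes name HISAT2 and StringTie, without versions. The genome build is not given in the sources used here.

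From the counts, TMM factors were computed with edgeR 4.0.16 under R 4.3.3. CPM were taken relative to the scaled library size. Log2 ratios and exact Clopper-Pearson 95% intervals were computed with scipy 1.17.1 for all 19294 genes, and medians and counts of genes were taken over the 17235 genes reaching 10 counts in the control or the DSS library. No listed gene had 0 counts. The calculation was tested on simulated data. Transcript lengths and GC content came from GENCODE release 21 of the mouse (GRCm38), as the median over the RefSeq-linked transcripts of a gene, and were found for 43 of the 44 members. Exon overlaps came from the same annotation.

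Counts were named for the catalytic subunits, the highest and lowest ratio of each group and of each related list and the 3 highest and 3 lowest ratios of all members (each with at least 100 counts), the inducible genes, Pomp, Adrm1, Sem1 and Nfe2l1. Of the list of ubiquitin genes, all but the activating enzymes are not reported here. The counts of Psma1, Psmc2, Psmd3, Psmd4, Psmd8, Psmd14, Psmg4, Psme3, Psme2b, Usp14, Vcp, Cd68, Csf1r, Pecam1, Pdgfrb, Acta2, Col1a1, Lgr5 and Sirt3 were added after their values were seen. The members and lists were chosen with earlier results of these data known. The motifs were chosen after the counts were seen. The scaling was also done with size factors from DESeq2 1.42.0, upper quartile factors, total counts and centering on the median of all genes. Further alternatives were a prior count of 2, other count minimums, thinning of the deeper library, other definitions of the members and a correction for the trend with GC content or with length (statsmodels 0.14.6, span 0.3).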

Additional observations from a re-analysis of the deposited data

How the results depend on the processing

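No paired analysis was possible because each condition is 1 library. For the same reason no library could be left out, and no difference has a replicate check. The medians of the members, of the core and regulatory particle and of the Psmg genes kept their sign under all alternatives, as did the 11 members past 0.5 in either direction. With total counts as the scale, the median was -0.48 for the members, -0.48 for the core particle, -0.35 for the regulatory particle and -2.13 for the Psmg genes, with 2 members above 0, 1 at 0.5 or more and 19 at -0.5 or less. With upper quartile factors, the medians were -0.13 for the members, -0.14 for the core particle and -0.0050 for the regulatory particle, 12 members were above 0, and the median of all genes turned to 0.033. Centered on the median of all genes, the core particle was at -0.17 and 11 members were above 0. These shifts follow from the scale itself, which moves every gene alike. With at least 100 counts required in both libraries, or without the names that are no proteasome protein, 1 member was at 0.5 or more. Among subunits alone, 1 was at 0.5 or more, 3 at -0.5 or less and 0 at -1 or less, since fewer genes enter. The difference between core and regulatory particle and that between the Psmg genes and the core particle ranged from -0.15 to -0.11 and from -1.65 to -1.64 under all alternatives that give a value. DESeq2 size factors, a prior count of 2, no count filter, thinning and the removal of trends with length or GC content moved none of these medians and counts of members by more than the typical counting error of their genes or, for counts, by more than 1.5 times. Among the members with a ratio, the counting intervals of Psmc3ip (-4.87 to -2.98) and Psme2b (0.13 to 1.59) were the widest.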
